A study of Rattus norvegicus with 5 samples.

Results

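Gene expression in 4 rat hepatocellular carcinoma lines, C5F, C6, N1 and L2, was compared with that in 1 control rat liver, at those array probes whose spots were called above background on all 5 arrays. Of 33849 discovery probes on each CodeLink array, 3338 (9.86%) met this condition, so each difference below lies between signals that were measured on both sides. These probes carry 2077 genes with a single symbol, of 12198 such genes on the array (17%). A further 1141 of them (34.2%) have no symbol in the annotation used and 29 carry several, so they enter the totals only. The lines were derived from male F344 rats whose labelled age is 31 weeks and to which N-nitrosomorpholine and diethylnitrosamine, both liver carcinogens, had been given. C5F and C6 are labelled as low-metastatic, N1 and L2 as high-metastatic. The liver came from a male SD rat of 50 weeks that had no treatment. Whether the lines came from separate animals is not given in the sources used here. Each line is 1 culture on 1 array and the liver is 1 animal on 1 array, so that strain, age, growth in culture and malignancy cannot be told apart in any difference between them.

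Liver is a tissue of hepatocytes mixed with Kupffer cells, endothelium and stellate cells, and it makes plasma proteins, oxidises fatty acids, disposes of amino acid nitrogen and detoxifies foreign compounds. Cells that divide in culture keep the general machinery of transcription, translation and protein turnover, which every cell needs, while they have to copy their DNA and make nucleotides. Genes of such general machinery are called housekeeping genes and are often used as references for other genes, which presumes a steady level between the samples compared.

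The labelled tissue was checked against marker genes. Of 10 hepatocyte markers on the array, among them Alb, Ttr and Cps1, 9 were above background in liver, 6 in C5F, 2 in N1, and none in C6 or L2, where each was near background or on a spot of poor quality. None of the 10 was above background on every array, so their difference lies outside the probes compared. Their summed normalised signal was 45534 in liver and 3367, 33.1, 100 and 39.6 in C5F, C6, N1 and L2. Of 7 Kupffer cell markers, 6 were above background in liver and 2 in each line, with a summed signal of 4418 in liver and 60.2 to 88.6 in the lines. Clec4f, a lectin receptor of Kupffer cells, was the only cell type marker above background on all 5 arrays. Markers of sinusoidal endothelium were above background for 5 of 7 genes in liver and for 2 or 3 in the lines, those of stellate cells and fibroblasts for 4 of 7 in liver and 1 or 2 in the lines, and those of lymphocytes for 3 of 6 in liver and 1 or 2 in the lines. The 4 cholangiocyte markers on the array did not move together. Krt19 was above background in C5F, C6 and L2 and on a poor spot in N1 and liver. Epcam was above background only in liver and C5F, near background in L2, and on a poor spot in C6 and N1. Sox9 and Spp1 were near background on every array. Of 2 red cell markers, 1 was above background in liver and 1 in C5F. The part of the cell mixture in the differences below was not tested. In bulk RNA of this kind, fewer cells of a type and less RNA per cell cannot be told apart.

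Between 30.6% and 39.2% of the discovery probes were above background per array, lowest in liver and highest in C5F. The condition removed 940 probes that were above background in liver but near background in all 4 lines, and 1183 with the opposite pattern. Another 3535 probes were above background on 4 arrays and had an irregular, contaminated or masked spot on the fifth, and 1646 were above background on 4 and near background on 1. At the edge of the rule, the dimmest probes kept had raw intensities of 12.2 to 13.5 per array. The brightest spots that were called near background, at probes above background on the other 4 arrays, had raw intensities between 24.7 in C5F and 65 in C6, so that the call and the intensity do not separate cleanly. Values are given as log2 normalised signal, on which a difference of 1 is a doubling, and a difference is the mean of the 4 lines minus liver, with its standard error (SE) from limma. Because the liver has no replicate, its error is taken from the spread between the lines.

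Under quantile normalisation, which sets all arrays to a common distribution, the lines differed from liver upwards and downwards to a similar extent. This balance is in part set by that step. The median difference over the 3338 probes was 0.06, the median size of a difference was 0.53, and the central 80% ran from -1.14 to 1.29. All 4 lines lay above liver at 1154 probes (34.6%), all 4 below at 1010 (30.3%), and liver lay inside the range of the lines at 1174 (35.2%). limma's test, adjusted by Benjamini-Hochberg over the 13606 probes tested, called 261 of the 3338 probes higher in the lines (7.82%) and 208 lower (6.23%), against 10.4% higher and 9.15% lower over all probes tested. In genes, 190 of 2077 were called higher (9.15%) and 131 lower (6.31%). An unadjusted p under 0.05 was reached by 992 probes (29.7%).

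**Figure D1:**
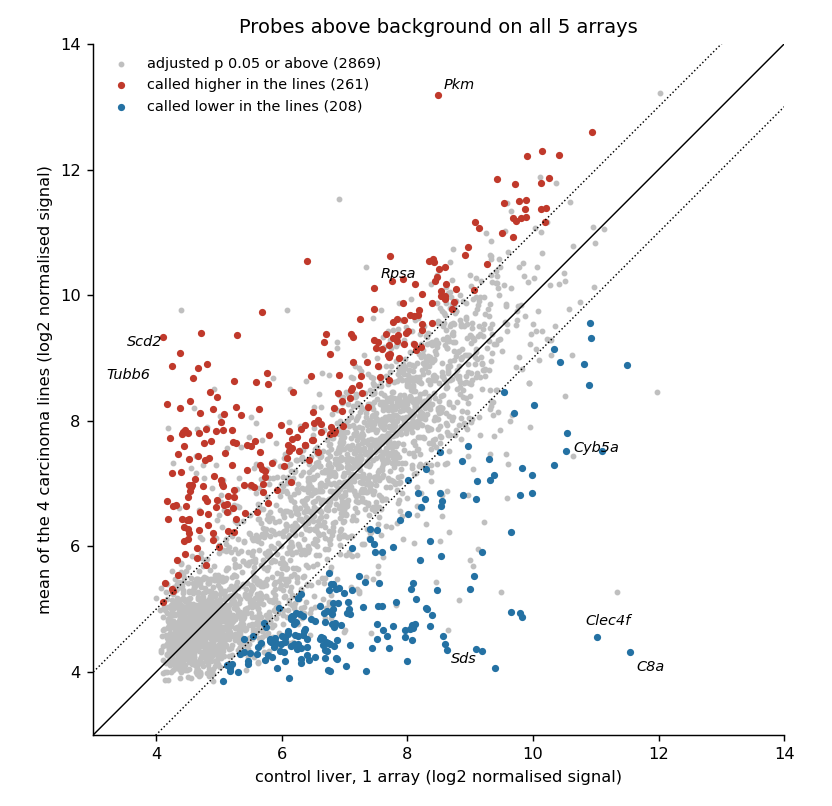
Mean log2 normalised signal of the 4 carcinoma lines (vertical) against that of the control liver (horizontal) at the 3338 probes above background on all 5 arrays. The solid line marks equal signal and the dotted lines 2-fold differences. The 261 probes called higher (red) and 208 called lower (blue) lie on both sides, and Pkm, C8a and Clec4f stand farthest from the diagonal among those labelled.

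These counts rest on few arrays. Without C5F, C6, N1 or L2 the probes called higher numbered 130, 102, 139 and 209, and those called lower 114, 92, 126 and 144. A count that uses no test gave 300 probes (8.99%) at which every line lay at least 2-fold above liver and 242 (7.25%) at which every line lay at least 2-fold below. Scaling each array to the median of these 3338 probes, in place of quantile normalisation over all discovery probes, moved the median difference by -0.31 to -0.25 and turned the split into 149 higher and 324 lower, so the balance of rises and falls depends on what is held constant. Differences of a gene list are therefore best read against the median of all genes compared, which was 0.14. Below, a call given as lost without a line refers to lines left out only. Of the 67 named genes that were called, 26 lost the call under at least 1 other processing setting.

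The housekeeping, organelle and metabolic genes had different values, although the differences between these 3 kinds were not tested. The 157 genes of 13 housekeeping lists had a median difference of 0.97, with 48 called higher (30.6%) and 0 lower. The 149 genes of 17 organelle lists had a median of 0.12, with 3 called higher (2.01%) and 5 lower (3.36%). The 95 genes of 16 metabolic lists had a median of -0.02, with 13 higher (13.7%) and 10 lower (10.5%), but their median size of difference was 1.24, against 0.41 for the organelle genes. Over all genes compared, 9.15% were called higher and 6.31% lower, and the counts of single lists below stand beside these shares. All 4 lines lay above liver for 122 of the 157 housekeeping genes, for 50 of the 149 organelle genes and for 41 of the 95 metabolic genes, beside 38.9% of all genes compared. All 4 lay below for 8, 38 and 38, beside 26.9%. In each of the lines the housekeeping median stood between 0.91 and 1.06, the organelle median between -0.02 and 0.19 and the metabolic median between -0.09 and 0.33. All 4 lines are set against the same liver array, so their likeness in these counts and medians is not independent evidence from each line. Of the lists' 1219 genes on the array, 407 could be compared here, and a gene that is off in liver or in a line is not among them.

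**Figure D2:**
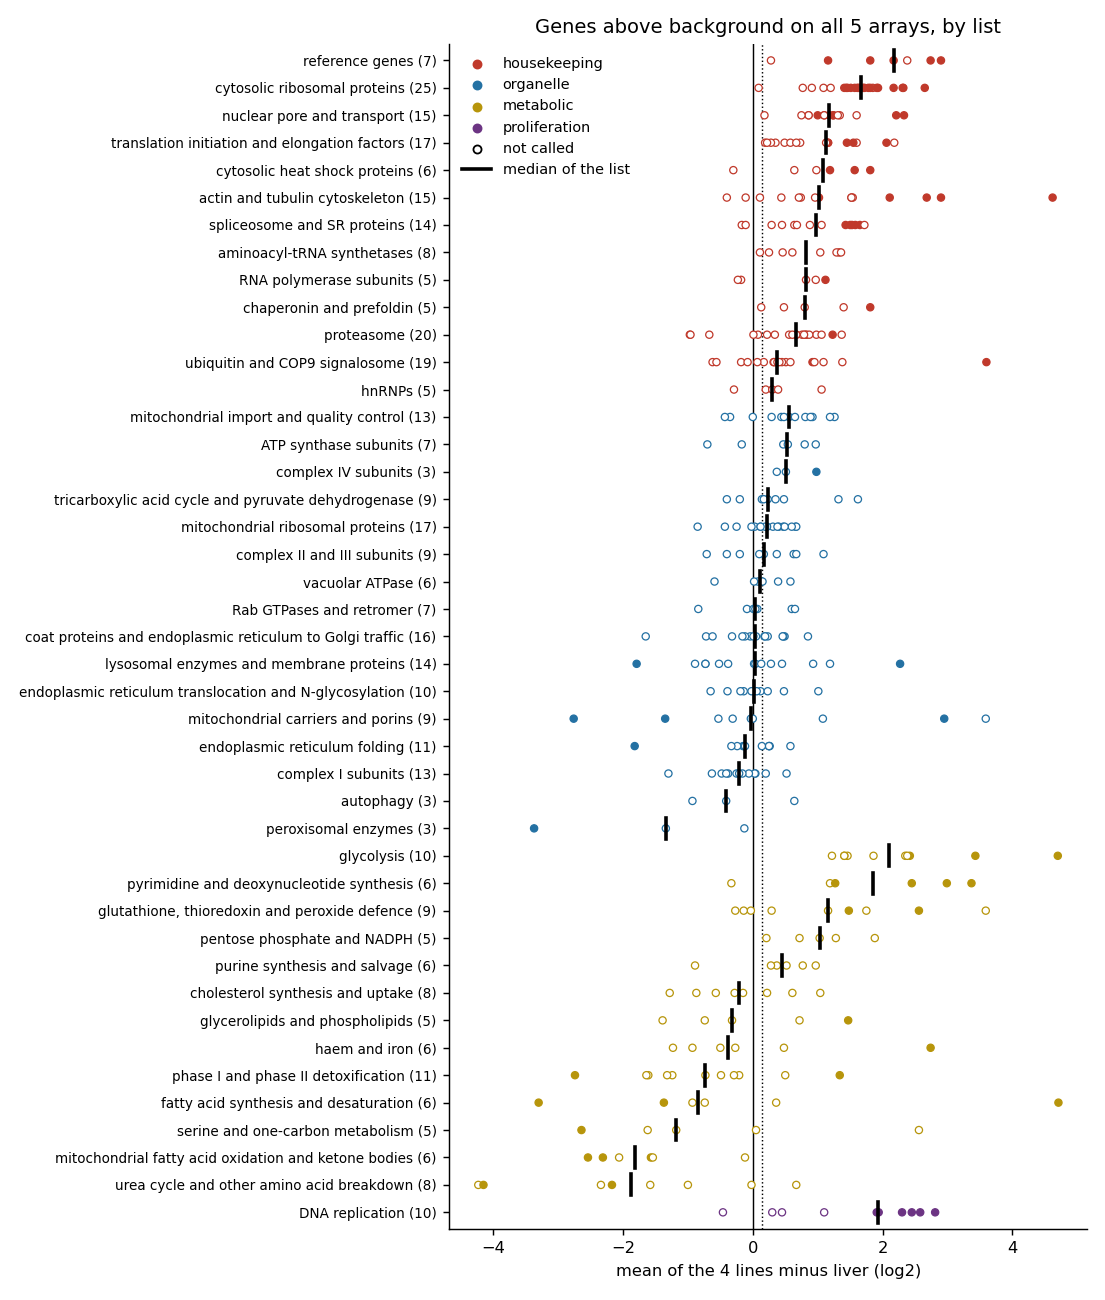
Difference between the mean of the 4 lines and liver (log2, horizontal) for each gene of the 43 lists with at least 3 genes above background on all 5 arrays, coloured by kind of list. Filled points were called by limma, open points were not, black bars are list medians and the dotted line is the median of all genes compared (0.14). Housekeeping medians run from 0.30 (hnRNPs, -0.07 with arrays scaled to the median of the probes compared) to 2.17 (reference genes), organelle medians from -1.34 to 0.56, and metabolic medians from glycolysis (2.10) down to urea cycle and amino acid breakdown (-1.88).

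The counts of calls changed with the lines included. Without C5F, C6, N1 or L2, 19, 14, 26 and 33 housekeeping genes were called higher and none lower, while the median stayed between 0.95 and 0.98. With arrays scaled to the median of the probes compared, 15 were called higher and 2 lower, with a median of 0.54 where the median of all the probes was -0.25. For the metabolic genes called lower the counts were 6, 6, 8 and 6 without each line in the same order, and for the organelle genes 2, 1, 4 and 3.

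Brightness moved with the direction of the difference. When the 3338 probes were divided by mean signal into 10 classes of equal size, the median difference was -0.23 in the dimmest class and 0.89 in the brightest, where 80 of 334 probes were called higher and 7 lower. With all genes of the housekeeping lists removed, 261 probes of the brightest class still had a median of 0.75. In the next brightest class (mean log2 signal 8.1 to 8.86), 303 such probes had a median of 0.3. The housekeeping genes were brighter (median of mean log2 signal 8.66) than the organelle genes (7.95) or the genes in no list (6.59). The part of brightness in the housekeeping result was not tested.

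**Figure D3:**
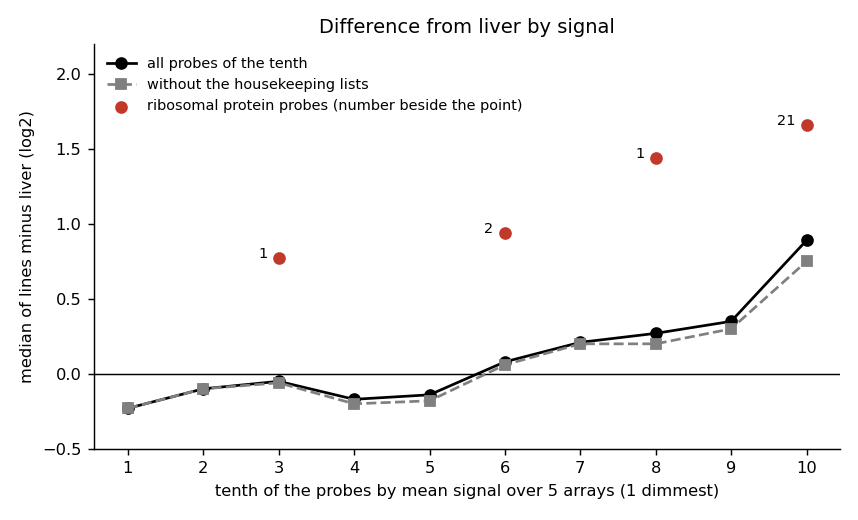
Median difference between the lines and liver (log2) in 10 classes of the 3338 probes by mean signal over the 5 arrays, for all probes (black), without the probes of housekeeping lists (grey) and for ribosomal protein probes (red, number beside each point). The median of all probes runs from -0.23 in the dimmest class to 0.89 in the brightest, where the 21 ribosomal protein probes have a median of 1.66. Part of this trend is built in, because the mean signal weighs the lines more than liver.

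Of genes commonly used as references for expression, 14 are on the array and 7 could be compared; 6 of the others had only spots of poor quality on some array and 1 was near background on some. Their median difference was 2.17, and 5 were called higher. Tubb5, a beta-tubulin, had a log2 signal of 7.72 in liver and of 10.53, 10.81, 10.86 and 10.28 in C5F, C6, N1 and L2, a difference of 2.90 ± 0.30 (SE, n = 4 lines against 1 liver; limma adjusted p = 0.00882). Tfrc, the transferrin receptor that brings iron into cells, stood at 5.36 in liver and at 8.12, 7.67, 8.37 and 8.22 in the lines, a difference of 2.74 ± 0.33 (adjusted p = 0.012). The lines are far above liver for both and close to each other.

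Rplp0, a protein of the large ribosomal subunit's stalk, stood at 8.41 in liver and 10.62, 10.51, 10.77 and 10.39 in the lines (difference 2.17 ± 0.23, adjusted p = 0.00907). Hsp90ab1, a cytosolic chaperone, rose from 7.47 to between 9.09 and 9.69 (1.81 ± 0.31, adjusted p = 0.0262), and its call was lost without C6, N1 or L2. Eef1a1, which delivers aminoacyl-tRNA to the ribosome, stood at 8.74 in liver and between 9.67 and 10.14 in the lines (1.16 ± 0.25, adjusted p = 0.0447). A second Eef1a1 probe gave 0.76, and the call was lost without any 1 of the lines. The call of Eef1a1 was also lost under each of the other scalings of the arrays.

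Pgk1, the phosphoglycerate kinase of glycolysis, showed the lines in pairs: 6.13 in liver, 9.10 in C5F and 9.11 in N1, but 7.92 in C6 and 7.91 in L2. Its difference of 2.38 ± 0.65 did not pass the test (adjusted p = 0.0714). Hprt1, which salvages purine bases, was the one reference gene whose lines did not all lie above liver. Its log2 signal was 8.68 in liver against 9.97 (C5F), 8.79 (C6), 8.72 (N1) and 8.35 (L2) (0.28 ± 0.67, adjusted p = 0.788), and the difference was -0.06 without C5F. Of the reference list 4, 3, 3 and 3 genes were called without C5F, C6, N1 or L2, and 2 with arrays scaled to the median of the probes compared.

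**Figure D4:**
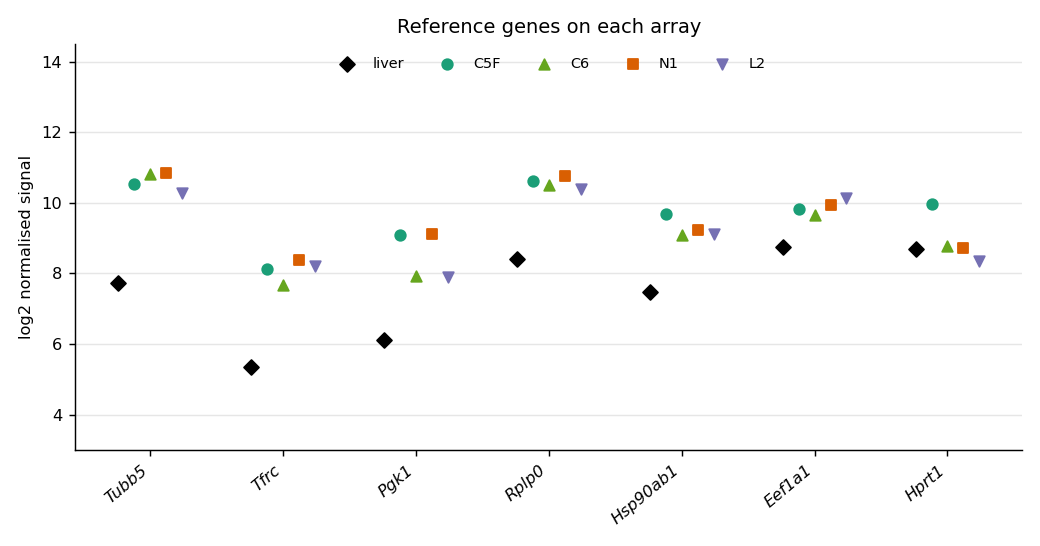
Log2 normalised signal of the 7 reference genes above background on all 5 arrays, with 1 point per array and liver in black. The 4 lines lie above liver for 6 genes, by differences of the means from 1.16 (Eef1a1) to 2.90 (Tubb5), and for Hprt1 L2 lies below liver.

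Cytosolic ribosomal proteins, the protein part of the ribosome, were the list with most genes called. Of 25 compared (44 on the array), 17 were called higher and none lower, the median difference was 1.66, and all 4 lines lay above liver for 24. The medians of C5F, C6, N1 and L2 were 1.49, 1.70, 1.75 and 1.43. Rpsa, of the small subunit, had the largest difference: 7.47 in liver against 10.19 (C5F), 9.32 (C6), 10.61 (N1) and 10.37 (L2) (2.65 ± 0.54, adjusted p = 0.0385). Rpl15, of the large subunit, stood at 7.94 in liver and between 9.78 and 10.63 in the lines (2.32 ± 0.40, adjusted p = 0.0261). The lines do not reach down to liver for either gene, but C6 is the lowest line in both.

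Rps24 was the exception in the list, with 6.46 in liver and 6.43, 6.51, 6.55 and 6.70 in the lines (0.09 ± 0.21, adjusted p = 0.773). Without C5F, C6, N1 or L2, 7, 7, 11 and 13 ribosomal protein genes were called higher. Scaling to the 75th percentile left 6 calls (list median 1.2), and the authors' array median left 5 (1.11). Scaling to the median of the probes compared left 3 (0.83). The calls of Rpsa and Rpl15 were lost without C5F, N1 or L2. The 21 ribosomal protein probes in the brightest of the 10 signal classes had a median of 1.66, against 0.83 for the other probes of that class. Many ribosomal protein genes have processed copies elsewhere in the genome, and the probes' sequences were not used here to tell them apart.

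Because 17 ribosomal protein genes were called higher and no gene of respiratory complex I, described below, was called, the bases just before the transcript start are shown for 2 genes of each, from RefSeq on rat build GRCr8. The searched letters are in capitals. Rpsa lies on the plus strand (chr8:128728779-128728878) and Rplp0 on the minus strand (chr12:46718391-46718490). Ndufa3 (chr1:74515559-74515658) and Ndufs1 (chr9:72073606-72073705) lie on the minus strand.
Rpsa: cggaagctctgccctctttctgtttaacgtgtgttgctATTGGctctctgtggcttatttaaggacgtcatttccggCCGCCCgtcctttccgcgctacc
Rplp0: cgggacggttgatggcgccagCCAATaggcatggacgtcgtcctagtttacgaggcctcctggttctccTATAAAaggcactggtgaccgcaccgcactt
Ndufa3: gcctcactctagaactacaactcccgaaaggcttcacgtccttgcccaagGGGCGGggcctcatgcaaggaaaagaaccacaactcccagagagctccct
Ndufs1: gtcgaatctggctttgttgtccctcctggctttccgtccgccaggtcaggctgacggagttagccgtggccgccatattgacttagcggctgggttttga

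In these 100 bases Rpsa holds a CCAAT box and an Sp1 box, both on the reverse strand, Rplp0 a CCAAT box and a TATA box, Ndufa3 an Sp1 box, and Ndufs1 none of the words searched. The search used the CCAAT box (CCAAT), the Sp1 box (GGGCGG), the TATA box (TATAAA), the ETS core (CCGGAAG), the NRF1 core (GCATGCGC) and the E-box (CACGTG) on both strands of the 300 bases from 250 before to 50 after each start; none of these words contains another. Of the 25 ribosomal protein genes 20 had a promoter in the table, and 30.0% of them held a CCAAT box, 55.0% an Sp1 box, 20% an ETS core and 15% a TATA box. Over all 27457 promoters of the table the shares were 37.7%, 34.9%, 9.22% and 14.3%, and over the 1771 genes compared that matched 39.6%, 64.3%, 21.2% and 6.95%. Of 12 matched complex I genes, 16.7% held a CCAAT box, 33.3% an Sp1 box and 8.33% an ETS core. These are matches of letters and were not measured as binding.

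Of 17 translation factors, which load and move the ribosome, 5 were called higher (median 1.13), and all 4 lines lay above liver for 14. Eif2b4, a subunit of an exchange factor for initiation, had the smallest difference, with 7.5 in liver and 8.04, 7.5, 7.39 and 7.83 in the lines (0.19 ± 0.33, adjusted p = 0.697). Eif2s1, the alpha subunit of the factor that brings the initiator tRNA, stood at 8.12 in liver and at 10.49, 10.15, 9.88 and 10.17 in the lines (2.06 ± 0.29, adjusted p = 0.0171). Eif5a, which helps the ribosome past difficult peptide bonds, had the largest difference but a wide spread: 7.58 in liver, 10.41 in C5F, 10.30 in N1, 9.43 in C6 and 8.92 in L2 (2.18 ± 0.68, adjusted p = 0.0939). Without C5F, C6, N1 or L2, 1, 1, 2 and 3 factors were called. Scaling to the 75th percentile or to the authors' array median left 1 call, and scaling to the median of the probes compared left 0 (median 0.41). The call of Eif2s1 was lost without C6 and under the last of these scalings. The 8 aminoacyl-tRNA synthetases, which charge tRNA with amino acids, had a median of 0.82. Only Farsa, of phenylalanyl-tRNA synthetase, was called (1.33 ± 0.27, adjusted p = 0.0381, lost without any 1 line), while Sars1 differed by 1.36 ± 0.42 (adjusted p = 0.0906). The call of Farsa was also lost under each of the other scalings.

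Among RNA processing and transport genes, calls were found in some lists and all were upwards. Of 14 spliceosome and SR protein genes 5 were called higher (median 0.97), and Phf5a, part of the SF3B complex, stood at 8.04 in liver and between 9.47 and 9.96 in the lines (1.65 ± 0.28, adjusted p = 0.025, lost without C6 or N1). Snrpg, of the Sm ring, had a larger mean difference of 1.72 ± 0.51 that did not pass (adjusted p = 0.0857). Of 15 nuclear pore and transport genes 5 were called (median 1.18). Nup107, of the pore's outer ring, stood at 4.55 in liver and at 7.04, 6.95, 6.88 and 6.63 in the lines (2.33 ± 0.24, adjusted p = 0.00826). Xpo1, the main nuclear export receptor, differed by 2.21 ± 0.38 (adjusted p = 0.0268), a call lost without C5F, C6 or N1.

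Without each line in the same order, 2, 0, 3 and 4 spliceosome genes and 1, 1, 3 and 3 nuclear pore genes were called, and 1 and 2 with arrays scaled to the median of the probes compared. Among 5 RNA polymerase subunits (median 0.82) Polr1d, shared by RNA polymerases I and III, was the only call, with 6.79 in liver and 7.93, 7.94, 7.90 and 7.85 in the lines (1.12 ± 0.18, adjusted p = 0.0225). The lines lie within 0.09 of each other, yet the call was lost without C5F, C6 or N1. None of 5 hnRNP genes, which coat nascent RNA, was called. Their median of 0.30 turned to -0.07 with arrays scaled to the median of the probes compared, and Hnrnpu had the largest difference (1.06 ± 0.30, adjusted p = 0.0746).

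Genes of protein folding and breakdown had list medians from 0.38 to 1.08. Of 20 proteasome genes, 17 had a positive difference (median 0.67) but 1 was called: Psmb7, of the catalytic ring, with 9.26 in liver and 10.65, 10.31, 10.59 and 10.42 in the lines (1.23 ± 0.23, adjusted p = 0.0314, lost without any 1 line). Psmd2, of the regulatory cap, differed by 1.37 ± 0.32 (adjusted p = 0.0509). Of 5 chaperonin and prefoldin genes (median 0.80) Cct6a was called (1.81 ± 0.28, adjusted p = 0.0201, lost without C5F or C6), and Cct8 differed by 1.40 ± 0.37 (adjusted p = 0.065). Of 6 cytosolic heat shock genes (median 1.08) 3 were called, among them Cdc37, which brings kinases to HSP90 (1.57 ± 0.26, adjusted p = 0.0235). Without C5F 2 of them were called, and none without C6, N1 or L2 or with arrays scaled to the median of the probes compared. The calls of Psmb7 and Cdc37 were lost under each of the other scalings.

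The 19 ubiquitin and COP9 signalosome genes had a median of 0.38, with 2 called. The one far above the rest was Ube2c, the ubiquitin-conjugating enzyme of the anaphase-promoting complex and hence a mitotic gene. It stood at 4.85 in liver and at 8.38, 8.72, 8.38 and 8.34 in the lines (3.60 ± 0.24, adjusted p = 0.00256). Nedd8, a ubiquitin-like modifier, differed by 1.38 ± 0.35 (adjusted p = 0.0619). Of 15 actin and tubulin genes 6 were called higher (median 1.02; 4, 3, 3 and 5 without C5F, C6, N1 or L2). Tubb6, a beta-tubulin, had one of the largest differences of all genes compared, from 4.25 in liver to 8.76, 8.86, 8.32 and 9.56 in the lines (4.62 ± 0.50, adjusted p = 0.00967).

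The organelle lists held few calls, in both directions, and their medians ran from -1.34 (peroxisomal enzymes) to 0.56 (mitochondrial import). The 13 complex I subunits, which take electrons from NADH into the respiratory chain, included no call and had a median of -0.21, or -0.63 with arrays scaled to the median of the probes compared, where 1 was called lower. All 4 lines lay below liver for 6 of the 13 and above it for none, beside 26.9% and 38.9% of all genes compared. Ndufa3 had the largest difference, with 9.44 in liver, 8.46, 8.43 and 8.57 in C5F, C6 and N1 and 7.08 in L2 (-1.30 ± 0.67, adjusted p = 0.233). Ndufs1, the largest subunit, lay on the other side of liver for 3 lines: 8.73 in liver, 9.07 in C5F, 9.57 in C6, 9.73 in L2, but 8.61 in N1 (0.52 ± 0.50, adjusted p = 0.491).

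None of 9 genes of complexes II and III and cytochrome c (median 0.17), 7 of ATP synthase (0.52) or 9 of the tricarboxylic acid cycle (0.23) was called. Cycs, cytochrome c, differed by 1.09 ± 0.51 (adjusted p = 0.197) and Atp5mc2, of the ATP synthase rotor, by 0.97 ± 0.48 (adjusted p = 0.22). Idh3a and Idh2, isocitrate dehydrogenases, differed by 1.62 ± 0.54 (adjusted p = 0.11) and 1.32 ± 0.58 (adjusted p = 0.177), and all 4 lines lay above liver for both. Cox6a1 was the only call among 3 complex IV genes (median 0.51), with 10.19 in liver and between 11.07 and 11.36 in the lines (0.98 ± 0.21, adjusted p = 0.0432), and the call was lost without any 1 line. It was also lost under each of the other scalings.

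None of 17 mitochondrial ribosomal proteins was called (median 0.22, from -0.85 for Mrpl2 to 0.67), nor any of 13 import and quality control genes (median 0.56). In the latter the largest differences were those of Chchd4, an import oxidoreductase (1.26 ± 0.43, adjusted p = 0.111), and the mitochondrial chaperone Hspe1 (1.19 ± 0.39, adjusted p = 0.101). The cytosolic ribosomal proteins, at a median of 1.66, and the mitochondrial ones, at 0.22, thus had different values in the same arrays, but their difference was not tested.

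Carriers of the inner mitochondrial membrane went in both directions. Slc25a4, the ADP/ATP carrier of heart and muscle, stood at 5.04 in liver and 7.99, 8.15, 8.31 and 7.49 in the lines (2.95 ± 0.37, adjusted p = 0.0135). Slc25a25, a calcium-dependent carrier, stood at 7.51 in liver and 5.06, 4.89, 4.55 and 4.52 in the lines (-2.76 ± 0.30, adjusted p = 0.00952). Its relative Slc25a24 had a larger difference than Slc25a4 that did not pass, with C5F apart from the other lines: 4.92 in liver against 6.92 (C5F), 9.19 (C6), 8.70 (N1) and 9.19 (L2) (3.59 ± 1.01, adjusted p = 0.0746). Slc25a21, an oxodicarboxylate carrier, was called lower (-1.35 ± 0.31, adjusted p = 0.0476), and this was lost without any 1 line. The median of the 9 carriers and porins was -0.03.

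Genes of the secretory route had medians at or near 0: 0.02 for 10 translocation and glycosylation genes, -0.12 for 11 folding genes, 0.03 for 16 coat and transport genes, 0.04 for 7 Rab GTPases and retromer genes and 0.11 for 6 vacuolar ATPase genes. The single call was Hyou1, a chaperone of the endoplasmic reticulum that stress induces, at 6.78 in liver and 5.20, 4.99, 5 and 4.64 in the lines (-1.82 ± 0.28, adjusted p = 0.0196, lost without C6 or N1). Ssr2, of the translocon, had 1.01 ± 0.41 (adjusted p = 0.156), Sec24a, of the COPII coat, -1.65 ± 0.58 (adjusted p = 0.121), Rab9a -0.84 ± 0.38 (adjusted p = 0.184) and Atp6v0d1 -0.59 ± 0.30 (adjusted p = 0.224).

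Lysosomal genes had a median of 0.03 over 14 genes. Cd63, a membrane tetraspanin, was called higher, with 6.19 in liver and 8.41, 8.19, 8.64 and 8.61 in the lines (2.27 ± 0.26, adjusted p = 0.0108), and Ctsf, a protease, lower (-1.79 ± 0.39, adjusted p = 0.0438, lost without C5F, C6 or L2). Peroxisomes were thinly covered. Of 32 enzymes on the array 3 could be compared, and Decr2, which helps to break down unsaturated fatty acids, fell from 8.05 in liver to 4.66, 4.81, 5.29 and 3.95 (-3.37 ± 0.54, adjusted p = 0.0221, lost without C5F or C6). Of 2 biogenesis genes Pex6 differed by -1.31 ± 0.61 (adjusted p = 0.197), and of 3 autophagy genes (median -0.41) Sqstm1, a cargo receptor, by -0.93 ± 0.28 (adjusted p = 0.0872). Neither of these 2 lists had a call.

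The sign of 9 organelle medians changed with scaling. With arrays scaled to the median of the probes compared, those of complexes II and III (-0.25), ATP synthase (-0.14), tricarboxylic acid cycle (-0.18), mitochondrial ribosomal proteins (-0.18), translocation (-0.38), coats (-0.27), Rab GTPases (-0.23), vacuolar ATPase (-0.24) and lysosome (-0.44) were below 0. No direction is read from these 9 lists.

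Metabolic genes differed in both directions. All 10 glycolytic genes compared had all 4 lines above liver (median 2.10), and 3 were called. Pkm, pyruvate kinase, whose muscle-type gene is low in hepatocytes, stood at 8.48 in liver and at 13.13, 13.36, 13.36 and 12.90 in the lines, a 26.0-fold difference (4.70 ± 0.27, adjusted p = 0.00188). Aldoa, the aldolase of muscle and dividing cells, stood at 4.69 in liver and 8.47, 7.81, 8.62 and 7.60 in the lines (3.43 ± 0.49, adjusted p = 0.0174). The smallest difference was that of Pfkl, the liver phosphofructokinase (1.22 ± 0.51, adjusted p = 0.166). Slc2a1, the glucose transporter of most dividing cells, rose with them, from 5.68 to 9.83, 9.70, 9.55 and 9.82 (4.04 ± 0.21, adjusted p = 0.00163). In the pentose phosphate list of 5 genes (median 1.03) none was called, and Tkt, transketolase, was higher in N1 (12.09) and L2 (11.98) than in C5F (10.71) and C6 (11.09), with 9.59 in liver (1.88 ± 0.65, adjusted p = 0.114).

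Gbe1, which branches glycogen, was the only gene of gluconeogenesis and glycogen that could be compared (13 on the array), and it was lower: 9.32 in liver, 7.61, 7.04, 7.22 and 6.33 in the lines (-2.27 ± 0.52, adjusted p = 0.0497, lost without C5F, C6 or N1). All 6 genes of mitochondrial fatty acid oxidation had negative differences (median -1.81), and 3 were called lower. Acaa2, the thiolase of the last step, stood at 10.89 in liver and 8.63, 7.92, 8.98 and 8.76 in the lines (-2.31 ± 0.46, adjusted p = 0.0363). Etfdh, which passes the electrons to ubiquinone, stood at 7.60 in liver and 4.68, 5.03, 5.84 and 4.68 (-2.54 ± 0.53, adjusted p = 0.0408), and Acadl, the long-chain dehydrogenase, differed by -1.57 ± 0.35 (adjusted p = 0.0475). The lines lie below liver at all 3, but without C5F, C6, N1 or L2 only 0, 1, 1 and 0 genes of the list were called lower, and none with no filter on dim probes.

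Fatty acid synthesis held a rise and 2 falls of large size among 6 genes (median -0.84). Scd2, a desaturase that is low in adult liver, stood at 4.38 in liver and 9.06, 8.64, 9.65 and 8.99 in the lines, 26.1-fold higher (4.71 ± 0.42, adjusted p = 0.00592). Fads2, the delta-6 desaturase of polyunsaturated fatty acids, stood at 8.31 in liver and 5.49, 5.04, 4.55 and 4.97 in the lines (-3.30 ± 0.39, adjusted p = 0.0119), with -3.41 at a second probe. Fasn, fatty acid synthase, fell from 8.96 to between 7.30 and 7.87 (-1.37 ± 0.28, adjusted p = 0.0376, lost without any 1 line). None of 8 cholesterol genes was called (median -0.22; Dhcr7 -1.28 ± 0.30, adjusted p = 0.0514). Of 5 glycerolipid genes (median -0.32) Plin2, a coat protein of lipid droplets, was called higher (1.47 ± 0.30, adjusted p = 0.0375, lost without C5F, N1 or L2). The calls of Fasn and Plin2 were also lost with the authors' array median and with no filter on dim probes.

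Nucleotide synthesis was covered by 2 lists of 6 genes, whose difference was not tested. Of 6 pyrimidine and deoxynucleotide genes 4 were called higher (median 1.86; 3, 3, 4 and 5 without C5F, C6, N1 or L2). Uck2, a uridine-cytidine kinase, stood at 4.42 in liver and 7.34, 7.88, 7.87 and 8.06 in the lines (3.37 ± 0.33, adjusted p = 0.00758), Ctps1, CTP synthase, at 5.77 and between 8.31 and 9.04 (2.99 ± 0.37, adjusted p = 0.0127). Dck, deoxycytidine kinase, had 8.49 in liver and 8.99, 8.85, 8.48 and 6.34 in the lines (-0.33 ± 1.15, adjusted p = 0.854). None of 6 purine genes was called (median 0.45), with Gmps, GMP synthase, at 0.97 ± 0.50 (adjusted p = 0.23) and Pnp, a phosphorylase of purine breakdown, at -0.89 ± 0.59 (adjusted p = 0.332). Of 10 DNA replication genes 6 were called higher (median 1.93; 6, 5, 5 and 7 without each line). Pold2, a subunit of DNA polymerase delta, differed by 2.81 ± 0.27 (adjusted p = 0.00697) and the helicase subunit Mcm4 by 2.58 ± 0.24 (adjusted p = 0.00641).

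The breakdown of amino acids and the disposal of their nitrogen are tasks of the liver. Of 8 genes for the urea cycle or for breaking down amino acids, 2 were called lower and none higher (median -1.88), and all 4 lines lay below liver for 6. The others were Asns, asparagine synthetase, which makes an amino acid (-0.02 ± 0.28, adjusted p = 0.959), and Got2, the mitochondrial aspartate aminotransferase, which had all 4 lines above liver (0.67 ± 0.34, adjusted p = 0.225). Sds, serine dehydratase, fell from 8.59 in liver to 4.07, 4.14, 4.97 and 4.61 in the lines (-4.15 ± 0.43, adjusted p = 0.00827), and Oat, ornithine aminotransferase, from 7.09 to between 4.55 and 5.15 (-2.17 ± 0.31, adjusted p = 0.0178, lost without C5F). Hgd, of tyrosine breakdown, had a mean difference as large as that of Sds but was graded over the lines: 9.50 in liver against 7.09 (C5F), 5.30 (C6), 4.67 (N1) and 4.03 (L2) (-4.23 ± 1.22, adjusted p = 0.0799).

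Of 5 serine and one-carbon genes (median -1.18) Mat1a, the methionine adenosyltransferase of adult liver, fell from 6.87 to 4.23, 4.21, 4.23 and 4.24 (-2.64 ± 0.18, adjusted p = 0.00256). Psat1, of serine synthesis, was above liver in all 4 lines but to very different extents: 5.51 in liver against 9.15 (C5F), 8.47 (C6), 7.77 (N1) and 6.87 (L2) (2.56 ± 0.91, adjusted p = 0.123). The 2 branched-chain genes compared had opposite signs, Bcat2 at 2.33 ± 0.96 (adjusted p = 0.159) and Pccb at -1.80 ± 0.46 (adjusted p = 0.0606). Of 2 polyamine genes Azin1 differed by 0.72 ± 0.38 (adjusted p = 0.245).

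Redox and detoxification genes were mixed. Of 9 glutathione, thioredoxin and peroxide genes (median 1.16) 2 were called higher: Txnrd1, thioredoxin reductase, at 5.63 in liver and 7.67, 7.95, 8.40 and 8.75 in the lines (2.56 ± 0.47, adjusted p = 0.031, lost without C6 or N1), and Txn1, thioredoxin (1.48 ± 0.33, adjusted p = 0.0455, lost without C6, N1 or L2). Nqo1, a quinone reductase, was above liver (4.61) in all lines, at 7.35 (C5F), 7.30 (C6), 8.68 (N1) and 9.48 (L2), and its difference of 3.59 ± 0.99 did not pass (adjusted p = 0.0726). Of 6 haem and iron genes (median -0.38) Tfrc was the only call, and Hmox2 differed by -1.23 ± 0.32 (adjusted p = 0.0646). Of 11 phase I and phase II genes (median -0.73) Cyb5a, cytochrome b5, was called lower, at 10.54 in liver and 8.03, 7.33, 8.10 and 7.73 in the lines (-2.74 ± 0.37, adjusted p = 0.0153), and Akr1a1, an aldehyde reductase, higher (1.34 ± 0.21, adjusted p = 0.0215, lost without C6 or N1). The calls of Txn1 and Akr1a1 were also lost under each of the other scalings.

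Among all genes compared, those with the largest called falls included several liver products. C8a, a complement component secreted by hepatocytes, stood at 11.55 in liver and 4.70, 4.22, 3.98 and 4.38 in the lines, a 150-fold difference (-7.23 ± 0.33, adjusted p = 0.00117). Clec4f, the Kupffer cell receptor, stood at 11.03 in liver and 4.65, 4.55, 4.64 and 4.37 in the lines (-6.48 ± 0.21, adjusted p = 0.000732), beside the other Kupffer markers given above. Agmo, which cleaves ether lipids, differed by -5.32 ± 0.35 (adjusted p = 0.00245), Gpld1, a phospholipase found in plasma, by -4.96 ± 0.48 (adjusted p = 0.00712) and Serpind1, an inhibitor of thrombin, by -4.86 ± 0.23 (adjusted p = 0.00136). Hsd3b5, a steroid dehydrogenase (-4.73), Sdc3, a syndecan (-4.29), Ceacam1, an adhesion molecule (-3.99, lost without C5F or C6), and Cyp2b2, a cytochrome P450 (-3.81), followed. The lowest signals of any probe compared were 3.26 to 3.84 per line and 3.99 in liver. Several rises, among them those of Tubb6, Scd2, Uck2 and Gins4, start from liver signals near that edge, so their size rests on a dim value. Among the falls, those of C8a (3.98 to 4.70 in the lines), Clec4f (4.37 to 4.65) and Sds end near the same edge. The size of these falls, the 150-fold of C8a included, rests on dim values in the lines.

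The largest called rises, after Scd2, Pkm and Tubb6, were those of Akr1b1, Rtkn, Kif22, Slc2a1, Cdc20, Ube2c and Dlgap5. Kif22, a chromosome-binding kinesin, stood at 5.29 in liver and 9.22, 9.59, 9.38 and 9.26 in the lines (4.07 ± 0.23, adjusted p = 0.00194). Cdc20, an activator of the anaphase-promoting complex, rose by 3.78 ± 0.21 (adjusted p = 0.00181) and Dlgap5, a spindle protein, by 3.50 ± 0.33 (adjusted p = 0.00647). Akr1b1, aldose reductase, had a wide spread, from 8.07 in C6 to 9.96 in N1 against 4.67 in liver (4.17 ± 0.77, adjusted p = 0.0316), and its call was lost without C5F, C6 or L2.

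The lines were compared with each other by their range, the highest minus the lowest of the 4. Over the 3338 probes the median range was 0.65, and it was under 1 at 77.2% of them. At most of these probes the lines thus lay within 2-fold of each other. A probe near background in a single line was left out beforehand, which favours a narrow range. Near background in 1 line and above it on the other 4 arrays were 47 probes for C5F, 104 for C6, 162 for N1 and 150 for L2. Among the probes compared, wide ranges were few. The range reached 2 at 113 probes and 4 at 15. It was 0.62 where every line lay at least 2-fold above liver (median difference 1.80) and 0.63 where every line lay at least 2-fold below (-1.92), close to the median over all. For called probes it was 0.48 (higher) and 0.52 (lower), but the test uses the spread between the lines, so a narrow range is part of being called. The median range was 0.58 for both the housekeeping and the organelle genes, 1.01 for the metabolic genes and 0.41 for DNA replication.

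Among called genes with a difference of at least 4-fold, the narrowest were Mat1a (range 0.03) and Rrm1, the large subunit of ribonucleotide reductase, which stood at 4.62 in liver and 7.06, 7.06, 7.11 and 7.04 in the lines (2.45 ± 0.18, adjusted p = 0.00342). Mat1a was dim in the lines, not far above the lowest signals compared (3.26 to 3.84 per line). Fgfr4, the growth factor receptor of hepatocytes, was 8.14 in liver and 5.13, 5.13, 5.13 and 5.29 in the lines (-2.97 ± 0.19, adjusted p = 0.00238). Cxadr, a junction protein, fell from 8.39 to between 4.78 and 5.01, Gins4, of the replicative helicase, rose from 4.25 to between 7.05 and 7.26, and Top2a, topoisomerase II, from 6.76 to between 8.95 and 9.19. These genes were chosen for their narrow range, which is therefore a description.

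**Figure D5:**
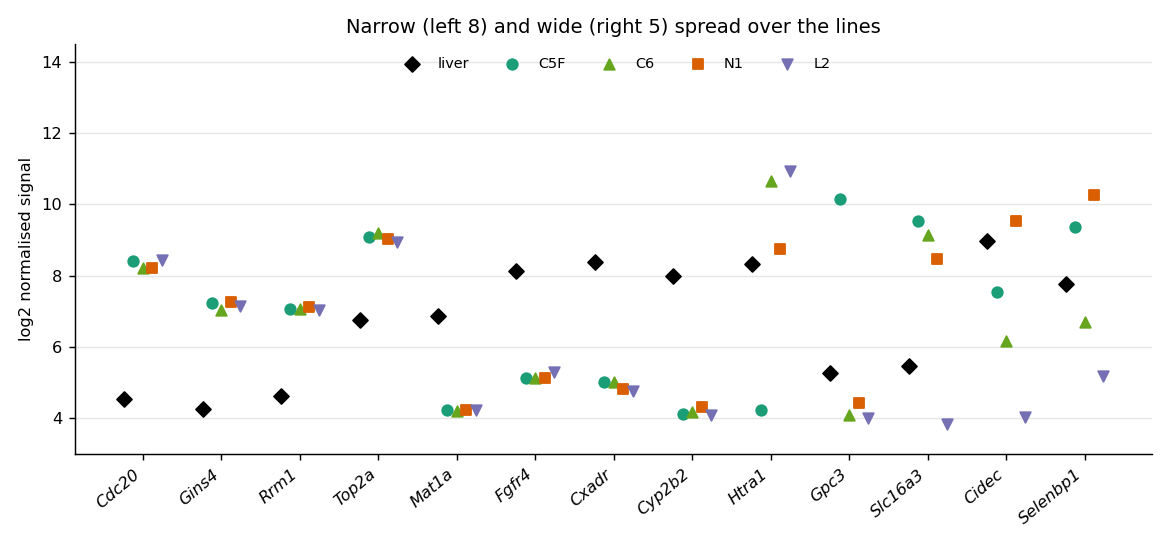
Log2 normalised signal on each array, with liver in black, for 8 genes called with a narrow spread over the lines (left) and the 5 genes with the widest spread (right). The 4 lines lie together and apart from liver on the left, while on the right single lines lie on either side of liver, as for Gpc3, which is 10.15 in C5F and 4 to 4.43 in the other lines.

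The widest ranges were found at genes whose mean difference says little about any line. Htra1, a secreted protease, was 8.33 in liver against 4.24 (C5F), 10.66 (C6), 8.76 (N1) and 10.95 (L2). Gpc3, an oncofetal proteoglycan, was 5.26 in liver and 10.15 (C5F), 4.1 (C6), 4.43 (N1) and 4 (L2). Slc16a3, a lactate exporter, was 5.48 in liver against 9.54 (C5F), 9.13 (C6), 8.47 (N1) and 3.83 (L2). Cidec, a lipid droplet protein, was 8.96 in liver against 7.53 (C5F), 6.16 (C6), 9.53 (N1) and 4.05 (L2), and Selenbp1, a selenium-binding protein, 7.78 in liver, 9.37, 6.71, 10.27 and 5.18 in the lines. None of the 5 passed the test, with adjusted p between 0.504 and 0.977.

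Of the lines, L2 and C5F were the most apart. The SD of a line's deviation from the mean of the other 3 was 0.58 for L2, 0.53 for C5F, 0.46 for N1 and 0.42 for C6. L2 lay at least 2-fold above all the other lines at 39 probes and below them at 50, C5F above at 17 and below at 51, N1 above at 32 and below at 7, and C6 above at 10 and below at 6. C6, the line with the smallest deviation, was the one whose removal cost most calls. Of the 67 named genes that were called, 38 kept the call with each line left out, and 37 of these kept it under the other processing settings too; the exception was Rplp0, lost with arrays scaled to the median of the probes compared. Cct6a, Hyou1, Oat and Ceacam1 lost it only with a line left out, and 26 genes, Rplp0 included, lost it under at least 1 other processing setting.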

How the data were processed

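Total RNA was labelled and hybridised to 1-colour CodeLink Rat Whole Genome arrays (1 slide each). Per the file headers, scans were quantified with CodeLink Expression Analysis 4.1.0.29054. The deposited raw intensity has values below 0, so background was already subtracted, and the authors' normalized intensity is the raw intensity over the array median; how background was removed is not given in the sources used here. The raw intensity was used, without control spots and with irregular, contaminated or masked spots set to missing. It was quantile normalised over discovery probes, floored at 2.534 (the median normalised signal near background) and taken to log2. Probes above background in liver or at least 2 lines were kept (16377), and limma 3.58.1 in R 4.3.3 was fitted to 13606 of them with lines and liver as 2 groups (3 residual degrees of freedom, prior 1.435; two-sided, Benjamini-Hochberg, threshold 0.05). The fit gives the lone liver the same variance as the lines, so p-values measure the spread between lines.

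Names came from the platform annotation, updated through a RefSeq table (GRCr8), where 16836 gene numbers matched and 29 did not. A gene was represented by its brightest probe on average; 90 genes had more than 1 probe compared. The rule named reference genes, for each list the 2 largest differences and the smallest, the 10 largest called changes in each direction, the 10 narrowest and the 5 widest ranges; not all are described. Ndufs1, Slc25a25, Slc25a21, Acadl, Fasn, Oat, Got2, Txn1 and Akr1a1 were added after their values were seen. The probes, lists and tests were chosen with earlier results of these data known. On simulated data for this comparison (13606 probes, 200 changed, 20 runs) 0.144% of 2-fold, 17% of 4-fold and 36.1% of 8-fold changes were recovered, and 2.7 of the unchanged probes were called per run. The simulated liver took its spread, and before any change its mean, from the lines, so calls from an unusual liver are not in that number. In the real data 1409 probes were called higher and 1245 lower, many more than were changed in the simulation. The Benjamini-Hochberg cut-off was therefore less strict in the real data, and these recovery rates do not carry over to it. Alternatives were other scalings, an offset of 50, no filter on dim probes, fitting only the probes compared, irregular spots kept, 3 groups, a variance trend and each line left out. The number of arrays limits the precision.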

Additional observations from a re-analysis of the deposited data

Results flagged for a closer look

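Among 159 sets of 4 lines tested with Dixon's ratio (the median of all probes, 43 list medians and 115 named genes), 12 had 1 line far from the other 3. Chance flags about 1 in 20 sets that were not chosen by their spread. That rate does not apply to genes named for a narrow or wide range, such as Fgfr4 and Gpc3, and called genes were chosen by a test that uses the spread. As list medians of the difference from liver, C6 stood at -0.07 for complexes II and III (others 0.22 to 0.27), N1 at 0.75 for ATP synthase (others 0.35 to 0.40), and L2 at 0.40 for mitochondrial import (others 0.68 to 0.73) and at -0.99 for glycerolipids (others -0.20 to -0.04). As log2 signals, C6 stood high for Ube2c (8.72, others 8.34 to 8.38) and Plin2 (7.59, others 7.03 to 7.09). L2 stood low for Ndufa3 (7.08, others 8.43 to 8.57) and Rab9a (6.05, others 6.71 to 6.80) and high for Fgfr4 (5.29, others 5.13). N1 stood high for Hmox2 (7.20, others 6.59 to 6.66) and Rtkn (9.41, others 8.72 to 8.73), and C5F for Gpc3 (10.15, others 4 to 4.43).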

How the results depend on the processing

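With each array scaled to the median of the probes above background on all 5 arrays, 149 probes were called higher and 324 lower, 182 lay at least 2-fold above liver and 344 below it in every line, and the median difference was -0.25. Under it 15 housekeeping genes were called higher and 2 lower, 10 organelle genes lower, and 8 metabolic genes higher and 19 lower. Hprt1 (-0.20), Htra1 (-0.19), Selenbp1 (-0.18), Eif2b4 (-0.096) and Got2 (-0.099) then changed sign. Asns did so with the 75th percentile (0.254), the authors' array median (0.167) and irregular spots kept (0.207). With the authors' array median 171 probes and 19 housekeeping genes were called higher, and with the 75th percentile 25 housekeeping genes. The offset of 50, which by its construction shrinks differences of dim probes, left 165 probes at least 2-fold above and 113 below liver in every line, with 5 organelle genes called higher and 16 metabolic genes lower. No filter on dim probes gave 3 organelle and 5 metabolic genes lower, fitting only the probes compared gave 18 metabolic genes lower, and 3 groups gave 3 organelle genes lower.

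With each line left out, which leaves fewer samples, 102 to 209 probes were called higher and 92 to 144 lower, with 14 to 33 housekeeping genes higher, 1 to 4 organelle genes lower and 6 to 8 metabolic genes lower. The difference ran from -0.062 to 0.477 for Hprt1, from -1.09 to 0.96 for Gpc3, from -0.69 to 1.005 for Selenbp1, from -0.135 to 0.041 for Asns, from -0.605 to 0.28 for Dck and from -0.44 to 1.80 for Htra1. Of 1495 comparisons of a named gene with its value under an alternative, 1288 stayed on the same side of the threshold and of 0, 152 lost and 38 gained a call, and 17 changed sign. Except where stated, the cause was not tested. No paired analysis was possible because the liver came from an SD rat and the lines from F344 rats. Each slide held 1 array, so no slide term could be fitted.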
